A study of Peromyscus polionotus with 11 samples.

Results

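Receptors for noradrenaline and serotonin were followed in 2 forebrain nuclei of the oldfield mouse, Peromyscus polionotus, kept in long or short days. Of 8 receptor genes, the 5 that carry a probe set with their symbol alone in the platform annotation were analysed: Adra2c, Htr1a, Htr2c, Htr5a and Htr6. Htr1a had 2 probe sets and the other genes had 1 each, which gave 6 of the 22626 probe sets tested. Adra2a, Adra1d and Adrb1 were not analysed here. Total RNA from micropunches was hybridised to 11 arrays designed for the house mouse. The medial preoptic area gave 3 long-day arrays (numbered 1 to 3) and 3 short-day arrays (4 to 6). The bed nucleus of the stria terminalis gave 3 long-day arrays (1 to 3) and 2 short-day arrays (4 and 5). The labels name no allele, agent, sex or age, do not say how long the animals were kept in each photoperiod, and do not tie the arrays to named animals, so p-values measure the spread between these samples, which may be technical.

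Noradrenaline and serotonin reach the preoptic area and the bed nucleus through long axons from the brainstem, so that the receptors are made by local cells while most of the transmitter is made elsewhere. The receptors are membrane proteins that act through G proteins. Alpha-2 adrenergic receptors and the serotonin receptors 1A and 5A couple mainly to Gi and Go proteins, which restrain adenylyl cyclase. The serotonin receptor 2C couples to Gq and phospholipase C, and the serotonin receptor 6 couples to Gs, which stimulates adenylyl cyclase. In the hypothalamus and extended amygdala these receptors are known for roles in sexual behaviour, anxiety, feeding and aggression.

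Values are deposited intensities on a linear scale, rounded to whole numbers, and each array had a median of 19 with quartiles of 13 to 14 and 34 to 35. A probe set near 19 is therefore close to the level of the middle of the array, and no detection call was used. Differences are log2 values, each given with its standard error from 1 two-sided limma fit to all 11 arrays, and p-values carry a Benjamini-Hochberg adjustment over every probe set tested, judged at 0.05. On the first principal component, which held 23.2% of the variance, the short-day medial preoptic array 6 stood apart at -31.2, against -6.63 to 25.4 for the other 10 arrays. Since the array carries house mouse sequences, a brighter probe set was not read as a more abundant transcript. The summed intensities of gene lists and the choice of the brightest probe set do use levels across probe sets.

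None of the 6 receptor probe sets passed the threshold in any of the 7 comparisons with limma. The lowest adjusted p was 0.0894, for Adra2c between the nuclei. Averaged over both day lengths, 3 of the 6 probe sets (Adra2c, Htr6 and the brighter Htr1a) lay higher in the bed nucleus and 3 lower. Of the lower ones Htr5a was at -0.0032, and 50.1% of all probe sets lay higher. Within the bed nucleus 5 of the 6 probe sets, all but Adra2c, had a higher mean on the short-day arrays, against 47.2% of all probe sets. The sizes and intervals of these differences are given below receptor by receptor.

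**Figure D1:**
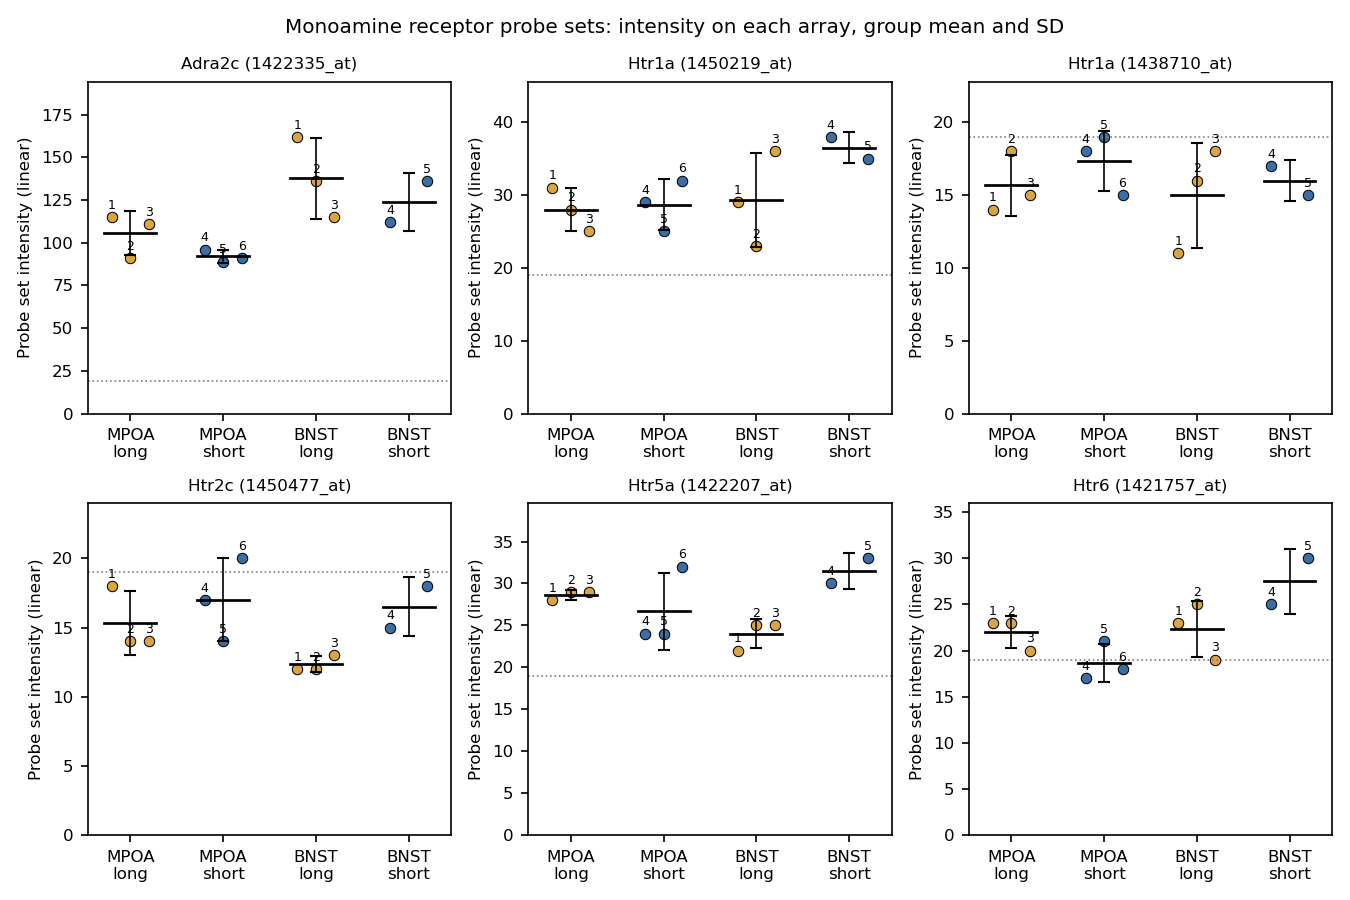
Intensity (linear scale, each axis from 0) of the 6 receptor probe sets on each of the 11 arrays, by nucleus (MPOA, medial preoptic area; BNST, bed nucleus of the stria terminalis) and day length. Points are arrays with their numbers, bars the group mean with its SD, and the dotted line the array median of 19. All bed nucleus points of Adra2c lie at 112 or above, and the Htr2c and second Htr1a points lie around or under the dotted line.

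Adra2c encodes the alpha-2C adrenergic receptor, which dampens transmitter release and is abundant in striatal neurons. Its probe set (1422335_at) read 115, 91 and 111 on the long-day and 96, 89 and 91 on the short-day medial preoptic arrays. It read 162, 136 and 115 on the long-day and 112 and 136 on the short-day bed nucleus arrays. It was above the array median on all 11 arrays. In short days the nuclei did not overlap, whereas in long days they met at 115. The group means, from the highest, were 138 ± 23.5 (SD, n = 3) in the long-day bed nucleus, 124 ± 17.0 (n = 2) in the short-day bed nucleus, 106 ± 12.9 (n = 3) in the long-day and 92.0 ± 3.61 (n = 3) in the short-day medial preoptic area. Each neighbouring pair in this order overlapped.

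Averaged over both day lengths, Adra2c lay 0.40 ± 0.11 (SE) higher in the bed nucleus on the log2 scale, a ratio of 1.32 with a 95% interval of the difference from 0.17 to 0.63. The unadjusted p was 0.00147 and the adjusted p was 0.0894 (limma), short of the threshold. Over 19 alternatives, 11 of which left out 1 array, the difference ran from 0.33 to 0.47, and the adjusted p stayed above 0.05 in each. Both ends of this range came from leaving out 1 array. The difference had about the same size within long days (0.38 ± 0.14, adjusted p = 0.373, limma) and within short days (0.42 ± 0.16, adjusted p = 0.336). In bulk punches, fewer cells that make a transcript and less of it per cell cannot be told apart.

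The intervals of the day length difference included 0 for Adra2c in both nuclei. Short minus long days gave -0.19 ± 0.14 in the medial preoptic area (95% interval -0.49 to 0.11) and -0.14 ± 0.16 in the bed nucleus (-0.48 to 0.19). The bed nucleus value turned to 0.014 after quantile normalization, so its direction depends on the scaling.

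Htr6 encodes the serotonin receptor 6, which is found mainly in the striatum and other forebrain regions. Its probe set (1421757_at) read 23, 23 and 20 on the long-day and 17, 21 and 18 on the short-day medial preoptic arrays. It read 23, 25 and 19 on the long-day and 25 and 30 on the short-day bed nucleus arrays. It exceeded 19 on 8 of 11 arrays. The group order was the short-day bed nucleus at 27.5 ± 3.54 (SD, n = 2), the long-day bed nucleus at 22.3 ± 3.06 (n = 3), the long-day medial preoptic area at 22.0 ± 1.73 (n = 3) and the short-day medial preoptic area at 18.7 ± 2.08 (n = 3). Neighbours in this order overlapped or met, while the first and last groups did not.

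The nuclei differed in Htr6 by 0.56 ± 0.16 in short days (95% interval 0.23 to 0.88, ratio 1.47), which did not pass (unadjusted p = 0.0019, adjusted p = 0.144, limma). In long days the difference was 0.02 ± 0.14, with a sign that turned under quantile normalization. Averaged over both day lengths it was 0.29 ± 0.10 (adjusted p = 0.243, limma). Short days went with -0.24 ± 0.14 in the medial preoptic area and 0.30 ± 0.16 in the bed nucleus. The test of whether these effects of day length differ gave 0.54 ± 0.21 (95% interval 0.11 to 0.98, unadjusted p = 0.0175, adjusted p = 0.527, limma).

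Htr5a encodes the serotonin receptor 5A, a Gi-coupled receptor of neurons. Its probe set (1422207_at) read 28, 29 and 29 on the long-day and 24, 24 and 32 on the short-day medial preoptic arrays. It read 22, 25 and 25 on the long-day and 30 and 33 on the short-day bed nucleus arrays. All 11 values were above the array median. The highest mean was that of the short-day bed nucleus, 31.5 ± 2.12 (SD, n = 2), followed by 28.7 ± 0.577 (n = 3) in the long-day and 26.7 ± 4.62 (n = 3) in the short-day medial preoptic area and by 24.0 ± 1.73 (n = 3) in the long-day bed nucleus. The highest group did not overlap the next, and the later neighbours overlapped.

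In the bed nucleus Htr5a lay 0.39 ± 0.15 higher in short days (95% interval 0.08 to 0.71), with an unadjusted p of 0.0165 and an adjusted p of 0.278 (limma). In the medial preoptic area the same comparison gave -0.12 ± 0.13. There arrays 4 and 5 lay under all long-day arrays and array 6 lay above them, and without array 6 the difference was -0.26. The effects of day length differed between the nuclei by 0.51 ± 0.20 (unadjusted p = 0.0196, adjusted p = 0.536, limma), and by 0.65 without array 6 (adjusted p = 0.266). In long days the bed nucleus lay under the medial preoptic area without overlap (-0.26 ± 0.13, adjusted p = 0.511, limma), and in short days at 0.25 ± 0.15. Averaged over both day lengths the difference was -0.0032 ± 0.10.

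Htr2c encodes the serotonin receptor 2C, which is made by neurons and in large amounts by the choroid plexus. Its probe set (1450477_at) read 18, 14 and 14 on the long-day and 17, 14 and 20 on the short-day medial preoptic arrays. It read 12, 12 and 13 on the long-day and 15 and 18 on the short-day bed nucleus arrays. Only array 6 of the medial preoptic area exceeded 19, and 1 intensity unit amounts to 0.095 in log2 terms here. The long-day bed nucleus, at 12.3 ± 0.577 (SD, n = 3), lay under all arrays of the other 3 groups, whose means were 15.3 ± 2.31 (n = 3), 17.0 ± 3.00 (n = 3) and 16.5 ± 2.12 (n = 2) and which overlapped each other.

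Short days went with an Htr2c value 0.41 ± 0.17 higher in the bed nucleus (95% interval 0.07 to 0.76, unadjusted p = 0.0209, adjusted p = 0.297, limma). In the medial preoptic area the difference was 0.14 ± 0.15, and 0.019 without array 6. The mean over both nuclei was 0.28 ± 0.11 (adjusted p = 0.484, limma). The difference between the nuclei in this effect was 0.27 ± 0.22, within its error. Markers of the choroid plexus, the other place where the transcript is made, were measured beside it, in a list shared with markers of ependyma. Of 16 listed genes 11 had a probe set, 6 of them with a mean at or under 19, and none was at 0 (lowest value 8). Their summed intensity was 252 to 287 on the long-day and 231 on both short-day bed nucleus arrays, and 226 to 241 on the medial preoptic arrays. Their part in the Htr2c values was not tested. Among them, the thyroid hormone carrier Ttr had group means of 56.0 to 68.0 with its probe set 1451580_a_at. Its dimmer probe sets reached higher values in the medial preoptic area: 1454608_x_at read 12 to 31 there and 11 to 14 in the bed nucleus, and 1455913_x_at 9 to 24 and 10 to 16.

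Htr1a encodes the serotonin receptor 1A, the main inhibitory serotonin receptor of forebrain neurons. Its brighter probe set (1450219_at) read 31, 28 and 25 on the long-day and 29, 25 and 32 on the short-day medial preoptic arrays. It read 29, 23 and 36 on the long-day and 38 and 35 on the short-day bed nucleus arrays. Both short-day bed nucleus arrays lay above all 6 medial preoptic arrays, and the other groups overlapped. The second probe set (1438710_at) read 11 to 19 and never exceeded the array median, with group means of 15.0 to 17.3.

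The 2 Htr1a probe sets did not give the same picture. In the bed nucleus, short minus long days was 0.34 ± 0.17 for the brighter and 0.12 ± 0.18 for the dimmer probe set (adjusted p = 0.430 and 0.836, limma). Between the nuclei the brighter probe set was at 0.20 ± 0.12 and the dimmer at -0.10 ± 0.12. In the medial preoptic area day length gave 0.03 ± 0.16 and 0.15 ± 0.17. The first of these changed sign without array 6 (-0.051).

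**Figure D2:**
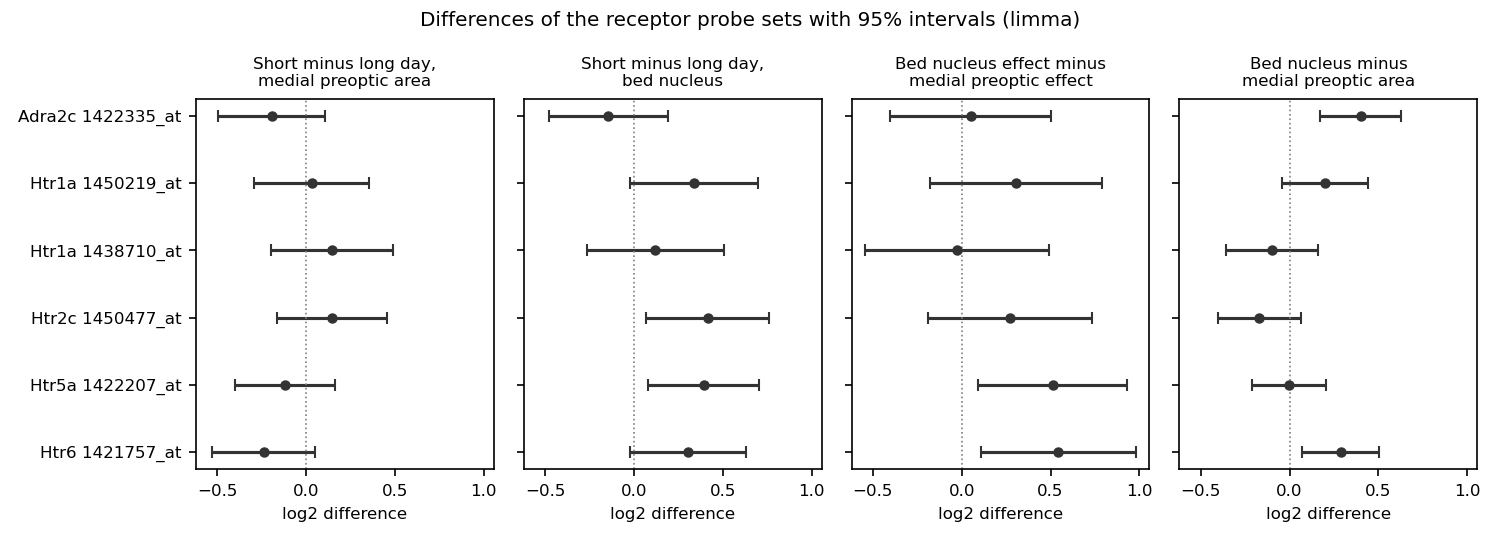
Log2 differences of the 6 receptor probe sets (points) with 95% intervals from limma (bars) for 4 comparisons. The intervals of Htr2c and Htr5a in the bed nucleus, of Htr5a and Htr6 in the difference of day length effects, and of Adra2c and Htr6 between the nuclei leave out 0, and none of these passed after adjustment.

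The counts of receptor probe sets were set beside those of the whole array. For day length in the medial preoptic area, 0 of 6 had an unadjusted p under 0.05, as did 3.5% of all probe sets, and 0 of 6 had groups that did not overlap (5.19% of all). The share of all probe sets past the adjusted threshold was 0% there. In the bed nucleus 2 of 6 had an unadjusted p under 0.05 (12.7% of all) and 2 of 6, Htr2c and Htr5a, had groups that did not overlap (23.7% of all, and 10.2% with the short-day arrays higher, as both were). The adjusted threshold was passed by 0.0442% of all probe sets and by 0 of 6 receptor probe sets. With 3 against 2 arrays, groups that do not overlap were thus common on the whole array.

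For the mean effect of day length 1 of 6, Htr2c, had an unadjusted p under 0.05 (9.02% of all), and 0.0133% of all passed after adjustment. For the difference of day length effects 2 of 6, Htr5a and Htr6, did (8.34% of all), and 0% of all passed after adjustment. Between the nuclei 2 of 6, Adra2c and Htr6, did (11.9% of all), 0 of 6 did not overlap (1.47% of all), and 1.03% of all passed after adjustment. Within long days 1 of 6, Adra2c, had an unadjusted p under 0.05 (10.5% of all), 2 of 6, Htr2c and Htr5a, did not overlap (12.2% of all, 5.5% with the bed nucleus lower, as both were), and 0.128% of all passed after adjustment. Within short days 2 of 6, Adra2c and Htr6, had one (10.3% of all), 3 of 6, Adra2c, Htr6 and the brighter Htr1a, did not overlap (19.4% of all, 8.86% with the bed nucleus higher, as these were), and 0.354% of all passed after adjustment. The median difference of the 6 probe sets in the bed nucleus was 0.32 for short minus long days, against -0.01 over all probe sets. In the medial preoptic area both medians lay near 0 (-0.04 and 0.00).

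The other receptors of the amine transmitters were taken from a list of 24 genes, of which 17 had a probe set. None passed in any of the 7 comparisons with limma, and 2 of 17 had an unadjusted p under 0.05 with any probe set for day length in the bed nucleus and 1 of 17 between the nuclei. Counted in the same way over all 12393 genes, which may have several probe sets each, the shares were 18.8% and 17.4%. In the bed nucleus 7 were higher and 10 lower in short days (median -0.01, against -0.03 over all genes, of which 44.8% lay higher). Most read low: 11 of the 17 had a mean at or under 19. Adra1b, the alpha-1B adrenergic receptor, read 31 to 51 over the arrays and differed by 0.11 ± 0.12 between the nuclei. Htr1b, a serotonin autoreceptor, read 27 to 42 and differed by 0.00 ± 0.11. The dopamine receptor Drd2, a defining gene of striatal neurons, read 12 to 16 in both nuclei.

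Enzymes and carriers that make, move and break down the amines were measured for 15 of 20 listed genes. None passed in any comparison with limma, with 4 of 15 at an unadjusted p under 0.05 for day length in the bed nucleus (18.8% of all genes) and 1 of 15 between the nuclei (17.4% of all genes). Between the nuclei 14 of 15 lay lower in the bed nucleus, by little (median -0.04, against 0.00 over all genes, of which 51.1% lay higher). Markers of the amine-making neurons themselves, 7 of 10 listed genes with a probe set, summed to 137 to 171 on all arrays. Th, the enzyme that starts catecholamine synthesis, had group means of 18.5 to 21.3, and the serotonin carrier Slc6a4 read 12 to 17. The histamine enzyme Hdc had means of 40.7 to 46.3 in 3 groups and 60 in the short-day bed nucleus.

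Downstream of the receptors 4 genes differed between the nuclei. Of 23 measured G proteins and second messenger enzymes 3 were lower in the bed nucleus: Gnas, Gnai2 and Adcy2. Of 18 measured receptor regulators and channels 1, Ppp1r1b, was higher. Thus 1 gene was higher and 3 were lower of 73 measured pathway genes. Of all probe sets 0.464% passed as higher and 0.566% as lower. These shares count probe sets, whereas the 73 genes could pass with any of their 119 probe sets, so the units are not alike.

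Gnas encodes the stimulatory G protein alpha subunit through which Htr6 signals. Its bright probe set (1450186_s_at) read 3609, 5759 and 4465 on the long-day and 4896, 5514 and 4656 on the short-day medial preoptic arrays. On the bed nucleus arrays its values were 2874, 3179 and 3524 (long days) and 2749 and 2637 (short days), so that all bed nucleus arrays lay under all medial preoptic arrays. The difference was -0.70 ± 0.11 (adjusted p = 0.00261, limma), and it passed with each array left out (adjusted p 0.00125 to 0.0335). It passed within short days too (-0.90 ± 0.17, adjusted p = 0.0245, limma), but not without the short-day medial preoptic array 4 or 5 or the bed nucleus array 4 or 5 (adjusted p 0.0786 to 0.242), nor on the short-day arrays alone (adjusted p = 0.247). The other 3 Gnas probe sets were dim, with means of 11.3 to 23.4, and differed by -0.03 to 0.02. The name ending of the bright probe set marks a possible match to several transcripts, and Gnas is an imprinted locus with overlapping transcripts.

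Gnai2 encodes an inhibitory G protein alpha subunit, of the class used by Adra2c, Htr1a and Htr5a. Its probe set 1435652_a_at read 620 to 993 on the medial preoptic and 429 to 595 on the bed nucleus arrays, without overlap (-0.56 ± 0.13, adjusted p = 0.0322, limma). The other Gnai2 probe set did not show this (-0.02 ± 0.10). The call was lost without the medial preoptic arrays 2, 4 or 5 or the bed nucleus arrays 1, 2, 4 or 5 (adjusted p 0.0521 to 0.205).

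Adcy2, an adenylyl cyclase, was lower in the bed nucleus, at 36 to 53 against 46 to 72 in the medial preoptic area (-0.55 ± 0.12, adjusted p = 0.0275, limma). The call was lost without the medial preoptic arrays 2, 3 or 5 or the bed nucleus arrays 1, 2, 4 or 5 (adjusted p 0.0516 to 0.175). Ppp1r1b encodes DARPP-32, a phosphatase inhibitor of striatal neurons that responds to dopamine and serotonin. It was higher in the bed nucleus, at 20 to 29 against 13 to 22 (0.58 ± 0.12, adjusted p = 0.0215, limma). The call was lost without the medial preoptic arrays 2, 3, 4 or 5 or the bed nucleus arrays 1, 4 or 5 (adjusted p 0.0516 to 0.13). The number of pathway genes past the threshold was 1 without the medial preoptic arrays 2 or 5 or the bed nucleus arrays 1, 4 or 5, and 2 without the medial preoptic array 4 or the bed nucleus array 2.

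**Figure D3:**
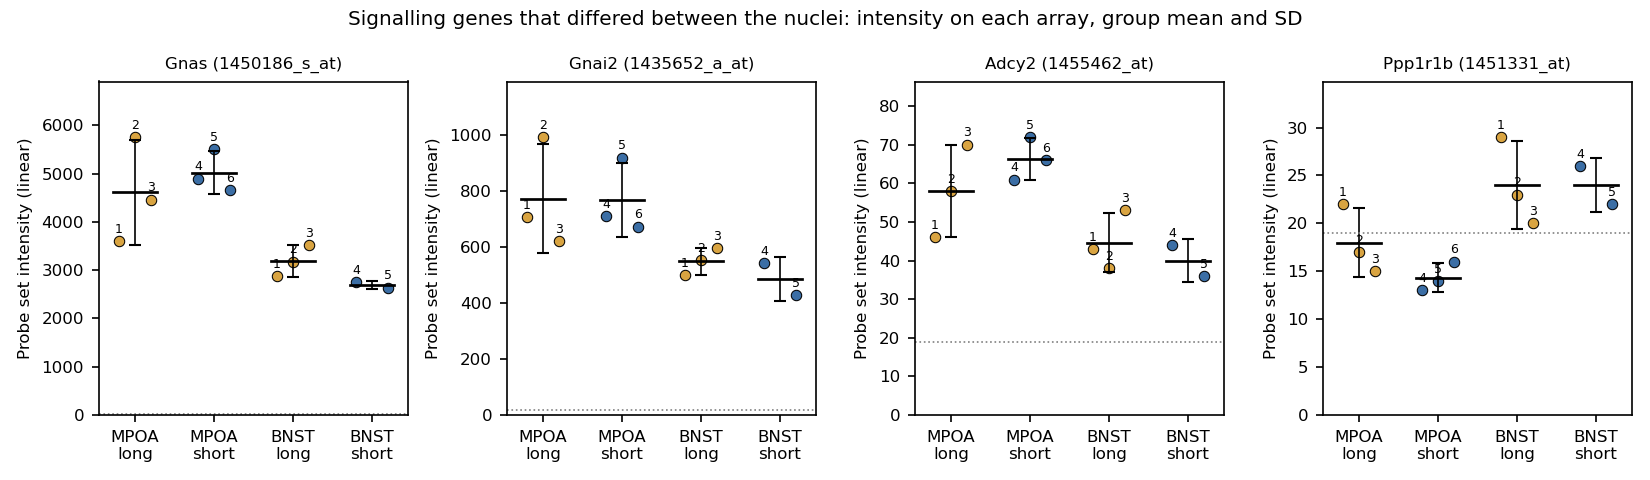
Intensity (linear scale, each axis from 0) on each array of the 4 signalling genes that passed between the nuclei, by nucleus and day length, with group mean and SD. Bed nucleus points of Gnas and Gnai2 all lie under the medial preoptic points, while those of Adcy2 and Ppp1r1b overlap them.

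None of these lists had a gene past the threshold for day length with limma. In the medial preoptic area 3 of 73 pathway genes had an unadjusted p under 0.05 with any of their probe sets (119 in all), against 5.65% of all genes counted in the same way and 3.5% of all probe sets. The 4 genes with the smallest p all had an adjusted p of 1 (limma). Kcnj6, a potassium channel opened by Gi-coupled receptors, was at -0.39 ± 0.13 with 1 of its 5 probe sets (1425707_a_at), while the other 4 ran from -0.36 to 0.11. Hrh4, a histamine receptor, was at 0.39 ± 0.13, Kcnj3, another such channel, at 0.35 ± 0.16, and Maoa, which breaks down amines, at 0.30 ± 0.14.

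In the bed nucleus 18 of 73 pathway genes had an unadjusted p under 0.05 with any probe set, against 18.8% of all genes and 12.7% of all probe sets. The smallest p belonged to a dim Gnas probe set (1421740_at, 0.65 ± 0.16, adjusted p = 0.106, limma). Its values were 14, 16 and 13 (long days) and 25 and 20 (short days), while the bright Gnas probe set was at -0.24 ± 0.17. Gch1, which makes the cofactor of amine synthesis, was at 0.59 ± 0.18 (adjusted p = 0.185, limma), and at 0.21 ± 0.16 with its other probe set. Plcb4, a phospholipase C, was at -0.74 ± 0.23 with 1425338_at (adjusted p = 0.19, limma), and at 0.0074 ± 0.19 with its other probe set. Adcy8, an adenylyl cyclase with 1 probe set, was at -0.53 ± 0.18 (adjusted p = 0.23, limma).

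The same Plcb4 probe set had the smallest p for the difference of day length effects (-1.05 ± 0.31, adjusted p = 0.45, limma), and the other was at 0.02 ± 0.26. Kcnj3, Adcy8 and the amine carrier Slc29a4 followed (adjusted p 0.466 to 0.548). For the mean effect of day length the dim Gnas probe set, Hrh4, Gch1 and another Kcnj6 probe set (1450294_a_at) came first (adjusted p 0.369 to 0.416, limma). Within long days no pathway gene passed between the nuclei, and the smallest p belonged to the bright Gnas probe set (-0.51 ± 0.15, adjusted p = 0.227, limma). Plcb1, a phospholipase C, was at 0.51 ± 0.16 with 1425600_a_at (adjusted p = 0.256, limma), and its other 3 probe sets ran from -0.31 to 0.37. Gnai1, an inhibitory G protein subunit, was at -0.38 ± 0.13 with 1454959_s_at (adjusted p = 0.282, limma), whereas its other probe sets were at 0.20 and 0.22. Plcb3 had 1 probe set (0.38 ± 0.13, adjusted p = 0.305, limma).

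**Figure D4:**
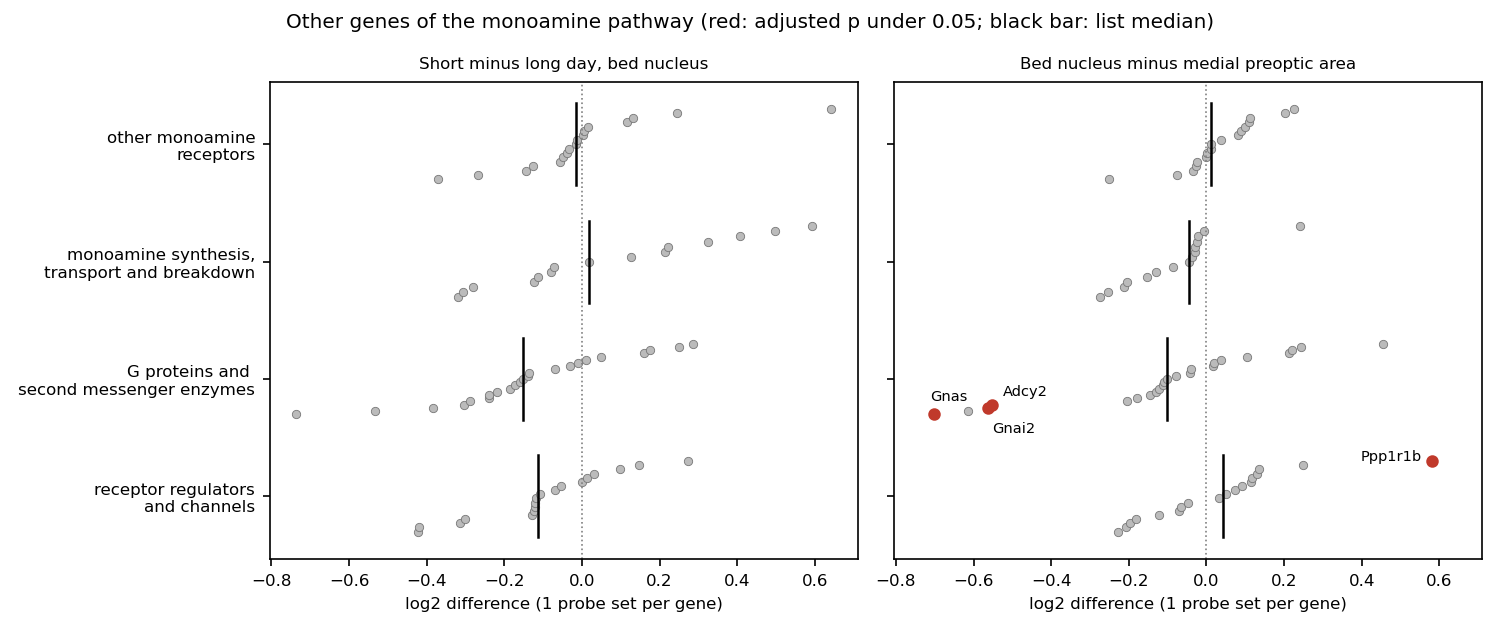
Log2 differences of the other genes of the monoamine pathway, 1 probe set (the brightest) per gene, by list, for day length in the bed nucleus and for the nuclei. Each point is a gene, the black bar is the list median, and the 4 red points passed. The receptors and the synthesis genes cluster near 0 between the nuclei.

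Cell type markers moved with the difference between the nuclei. Of all genes 51.1% lay higher in the bed nucleus, each by its brightest probe set. Among 11 measured markers of striatal neurons, 10 lay at higher values in the bed nucleus (median 0.58, against 0.00 over all genes). Of these 11, 5 genes (Foxp1, Pde10a, Ppp1r1b, Rasd2 and Rgs9) passed with at least 1 probe set. These 11 genes had 21 probe sets, and of all probe sets on the array 0.464% passed as higher and 0.566% as lower. The summed intensity of the striatal markers was 2220 to 3098 on the long-day and 1737 to 2325 on the short-day medial preoptic arrays. On the bed nucleus arrays it was 3187 to 3919 and 3841 to 4050. Averaged over both day lengths, 3 of the 6 receptor probe sets lay higher in the bed nucleus and 3 lower. Adra2c had a higher mean in the bed nucleus in both day lengths, and Htr6 lay higher there in short days (0.56 ± 0.16) but hardly in long days (0.02 ± 0.14). Foxp1, a transcription factor, had group means of 1595 to 3342 with its probe set 1435222_at and made up most of the sum. No marker was at 0 (lowest value 11). Hypothalamic and preoptic markers lay lower in the bed nucleus in 19 of 25. With any probe set, 5 of the 25 genes passed as lower and 1 as higher. Of 15 general neuronal markers 11 lay lower and 1 passed. Oligodendrocyte markers lay higher in the bed nucleus in 8 of 11 (median 0.27), none passed with limma and 5 had an unadjusted p under 0.05 (17.4% of all genes). Their sum was 548 to 691 on the medial preoptic and 656 to 1097 on the bed nucleus arrays, and the myelin gene Mbp had group means of 75.7 and 77.7 against 142 and 162. Markers of vessels and meninges lay higher in 9 of 14, of astrocytes in 7 of 13 and of microglia in 5 of 12, none passed with limma, and 3, 3 and 0 had an unadjusted p under 0.05. The part of these markers in the receptor values was not tested.

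For day length in the bed nucleus, 44.8% of all genes lay higher in short days, each by its brightest probe set. Of 15 general neuronal markers 11 lay lower there in short days and none passed with limma (5 at an unadjusted p under 0.05, against 18.8% of all genes). Their sum was 3267 to 3588 in long and 3035 to 3101 in short days, while 5 of the 6 receptor probe sets lay higher. Markers of vessels and meninges lay lower in short days in 10 of 14 (median -0.18), none passed with limma and 7 had an unadjusted p under 0.05. Their sum was 839 to 1295 on the long-day and 479 to 803 on the short-day bed nucleus arrays, without overlap. On the medial preoptic arrays the sum ran the other way, from 539 to 666 in long and from 724 to 1243 in short days. Counted by gene, however, 6 of 14 lay higher and 8 lower there in short days (median -0.016). The brightest gene of this list weighed most in the sum. It was Ptgds, a prostaglandin synthase of the meninges, with means of 649 and 319 in the long-day and short-day bed nucleus. In the medial preoptic area its means were 245 and 591. Of 11 oligodendrocyte markers 7 lay higher in the short-day bed nucleus, of 13 astrocyte markers 5 and of 12 microglia markers 6, and none passed with limma. In either direction and with any probe set, 5, 2 and 0 genes of these lists had an unadjusted p under 0.05. Striatal markers in the medial preoptic area lay lower in short days in 11 of 11 (median -0.32), where 49.5% of all genes lay higher. None passed with limma (4 at an unadjusted p under 0.05, against 5.65% of all genes). Of the 6 receptor probe sets 3 lay lower there (Adra2c, Htr5a and Htr6) and 3 higher, all with intervals that included 0. In the bed nucleus 7 of 11 striatal markers lay higher in short days (median 0.063), whereas Adra2c lay lower (-0.14). The part of these markers in the receptor values was not tested.

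The genes nearest to Adra2c over the 11 arrays, by the root mean square difference of centred log2 values as a share of the SD of Adra2c, were Srpk2, a splicing kinase (0.37), Alcam, an adhesion molecule (0.38), Msl1 (0.40), Rufy2 (0.41) and Srr, the enzyme that makes D-serine (0.43). Like Adra2c they were highest on the long-day bed nucleus array 1, except Alcam, whose value of 110 on the short-day array 5 exceeded its 105. The genes nearest to Htr6 were Usp20 (0.37), Adnp2 (0.40), Arid3b (0.41), Ccnf (0.45) and Helq (0.48). All 5 were highest on the short-day bed nucleus array 5, as Htr6 was. These are descriptions over 11 arrays that share their normalization, chosen out of 12393 genes as the nearest.

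**Figure D5:**
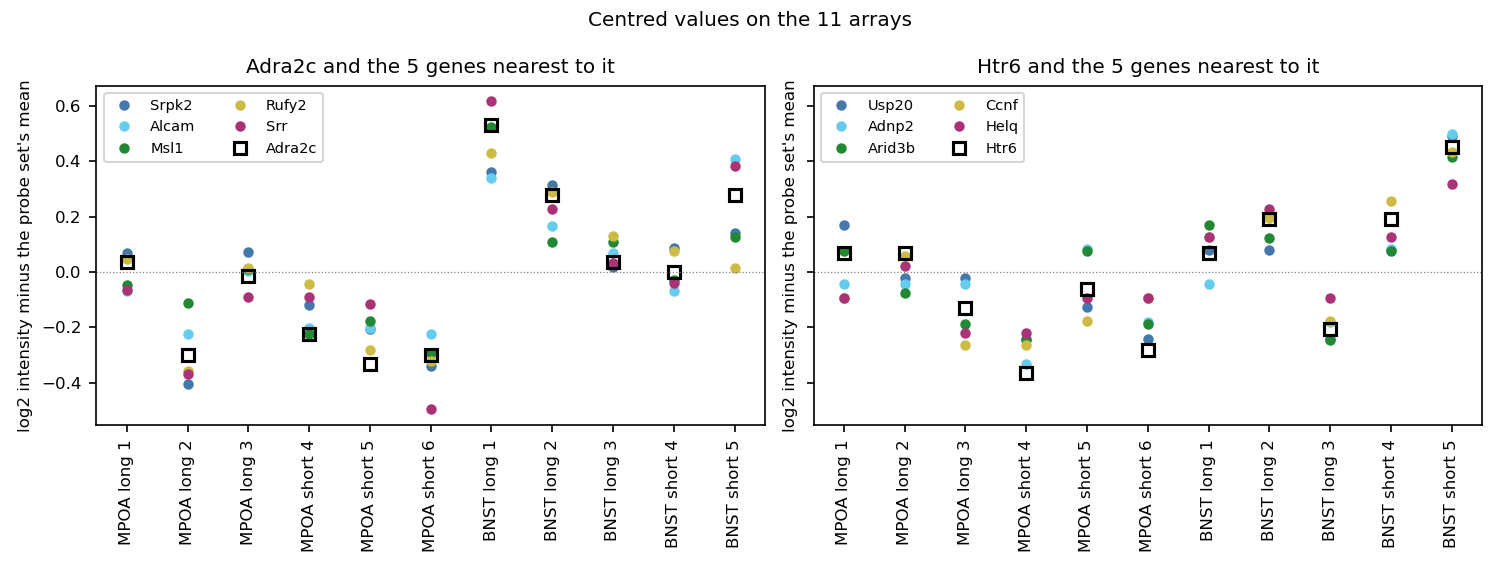
Log2 intensity minus the probe set's own mean on the 11 arrays for Adra2c and Htr6 (squares) and the 5 genes nearest to each (points). The squares peak on the bed nucleus arrays 1 (long day) and 5 (short day).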

How the data were processed

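The deposited values are intensities of probe sets on a linear scale, made with RMA version 3.4 per the submitters' processing notes, and no further step is named in those notes. They are whole numbers with 1 median on all arrays, so the authors had normalized and rounded them. The table held 22690 probe sets, of which 64 controls were left out. Of the 22626 tested, 20380 carry 1 gene symbol in the platform annotation, 691 several and 1555 none. Only the first were named, and some symbols can be old.

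The log2 of the intensities was fitted with 4 group means in limma 3.58.1 (R 4.3.3), with 7 residual and 12.9 prior degrees of freedom. The procedure was tested on simulated arrays with changes planted only in probe sets brighter than the median. Of the planted changes only the larger had to be found. That test does not cover the dim receptor probe sets. Precision is limited by how many arrays there are. The members, the gene lists and the alternatives were chosen with earlier results of these data known. Named were all receptor probe sets, up to 8 pathway genes per comparison that passed (otherwise those among the 4 with the smallest p), the 5 genes nearest to each of 2 receptors, and up to 4 bright markers per list. In the gene lists a gene counts as passing with any probe set, and its direction is that of its brightest. Genes outside this rule are Adra1b, Htr1b, Htr3b, Drd2, Slc6a4, Pde10a and Rasd2, picked after their values were seen.

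Alternatives were quantile normalization, median centring, leaving out dim probe sets, a prior with trend and robust fitting, weights for arrays, the brightest probe set of each gene alone, noise within the rounding step, the arrays of a comparison alone, a block on the sample number, and each array left out.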

Additional observations from a re-analysis of the deposited data

How the results depend on the processing

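No receptor probe set passed the threshold in any comparison under any of the 20 alternatives (lowest adjusted p = 0.0522, limma). Of the 42 receptor differences, 11 changed sign with some array left out, all small. With 1 array left out, Adra2c ran from -0.091 to 0.19 in the difference of day length effects. Htr1a 1438710_at ran from -0.23 to 0.12 between the nuclei in long days, -0.17 to 0.0063 averaged, -0.23 to 0.12 in the difference of day length effects and -0.088 to 0.27 for day length in the bed nucleus. Htr1a 1450219_at ran from -0.11 to 0.21 between the nuclei in long days and -0.051 to 0.13 for day length in the medial preoptic area. Between the nuclei, Htr2c ran from -0.17 to 0.098 in short days, Htr5a from -0.038 to 0.066 averaged and Htr6 from -0.071 to 0.13 in long days. The mean day length effect on Htr6 ran from -0.034 to 0.098. Quantile normalization turned Adra2c for day length in the bed nucleus (0.014) and Htr6 between the nuclei in long days (-0.0019). Array weights turned Htr1a 1450219_at for day length in the medial preoptic area (-0.0061), Htr2c between the nuclei in short days (0.015) and Htr5a averaged (0.040). The cause was not tested. The dim Htr1a and Htr2c probe sets gave no value with dim probe sets left out, and the dim Htr1a none with 1 probe set per gene. The number of pathway genes that passed ran from 1 to 6 between the nuclei (4 as reported) and from 0 to 1 in short days with 1 array left out; in short days it was 2 with array weights and 0 with the short-day arrays alone.

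Whether numbers shared by both nuclei pair the arrays is not known. Deviations of the 5 same-numbered pairs from their group means correlated at -0.028 to 0.073, and 3 of 5 bed nucleus arrays were closest to their own number. With means of 2 or 3 arrays this check cannot decide the question. With the replicate block, 0 receptor probe sets passed, 5 pathway genes passed between the nuclei and 2 in short days. Htr2c in short days (0.091) and Htr5a averaged (0.066) changed sign between the nuclei. Both values were the same with array 6 left out, which has no bed nucleus array of its number.

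Rounding limits the dim receptors: 1 unit is 0.095 on the log2 scale for Htr2c.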

Other observations

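Hdc, the enzyme that makes histamine, was looked at after its values were seen. Both of its probe sets lay higher on the short-day bed nucleus arrays without overlap, as did 10.2% of all probe sets. The name endings of both mark a possible match to several transcripts. The brighter (1451796_s_at) had 45, 37 and 46 on the long-day and 59 and 61 on the short-day arrays (0.50 ± 0.19, unadjusted p = 0.0158, adjusted p = 0.273, limma), and the dimmer (1454713_s_at) 9, 12 and 12 against 15 and 15 (0.46 ± 0.19, adjusted p = 0.326). In the medial preoptic area the values of 1451796_s_at were 45, 33 and 44 (long days) and 39, 39 and 61 (short days), so that only array 6 reached the short-day bed nucleus level. Htr3b, a subunit of the serotonin-gated channel, read 25 on array 6 and 8 to 17 on the other 10 arrays.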
